A study of Mus musculus with 36 samples.

Results

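The 35 genes described here mark the oligodendrocyte lineage and the myelin it makes, from the precursor cell to the mature sheath. They were chosen by name: each symbol was matched to its mouse Ensembl gene identifier in a table of 55421 genes, and all 35 were found. The filter on low counts kept 19477 genes, among them all 35. By role they comprise 4 precursor genes (Pdgfra, Cspg4, Gpr17, Enpp6), 1 gene of newly forming oligodendrocytes (Bcas1), 5 transcription factors (Sox10, Olig1, Olig2, Nkx6-2, Myrf) and 10 myelin sheath genes (Mbp, Mog, Mag, Mobp, Cnp, Cldn11, Opalin, Mal, Ermn, Tspan2). The rest are 8 genes of myelin lipids, glial gap junctions and metabolism (Ugt8a, Fa2h, Gjb1, Gjc3, Aspa, Trf, Car2, Qdpr), 3 matrix or adhesion genes (Tnr, Nfasc, Ninj2), 2 receptors (Lpar1, Gpr37) and 2 genes of mature-oligodendrocyte states (Serpinb1a, Klk6).

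RNA was measured in right hippocampal slices of C57BL/6 wild-type mice and of Thy1-hAPPLond/Swe [Line 41] mice, called T41B in the labels, which express human APP with the London and Swedish mutations from a neuronal Thy1 cassette and form amyloid plaques. Mice of both genotypes were gavaged for 3 months, from 13 to 16 months of age, with vehicle or with BD10-2, a small molecule that acts on the neurotrophin receptors TrkB and TrkC. Slices then received theta-burst stimulation (3 rounds of 10 bursts at 200 ms intervals, 4 stimuli at 100 Hz per burst) or a sham procedure, and were frozen at once, so sham as well as stimulated groups are sliced tissue. The 36 libraries came from 18 mice. Where a mouse and condition had 2 libraries they were summed, which gave 32 samples. With vehicle there were 4 wild-type and 4 T41B mice in the sham and again in the stimulated group. With BD10-2 there were 3 wild-type and 5 T41B mice in each. Groups are separate mice, but sham and stimulated slices of 14 mice share the animal (4 wild-type and 4 T41B mice with vehicle, 2 and 4 with BD10-2). Each of the 8 batches held 1 treatment. Batches A, B, C, D and I held both genotypes, E only wild-type mice, and G and H only T41B mice. Genotype comparisons, and how stimulation differs between genotypes, thus lie partly between batches. The labels give no sex and no number of slices per sample.

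Oligodendrocyte precursors divide and persist in the adult brain, and they respond to platelet-derived growth factor through the receptor encoded by Pdgfra. On commitment to differentiate, the cells pass through a stage marked by Gpr17, Enpp6 and Bcas1, and Myrf and Sox10 then switch on the genes of the myelin sheath. Myelin is a lipid-rich membrane, so enzymes that make its galactolipids belong to the same program, as do the connexins that couple oligodendrocytes to astrocytes. In the hippocampus myelin is densest in the alveus and fimbria, and precursors lie in all layers.

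Library totals ran from 11597555 to 28125842 counts with a median of 18082415, and mitochondrial genes took 2.0 to 5.4% of them. The 35 genes together took 0.44 to 1.18% of the counts of a sample. Expression is given in CPM, counts scaled to the library total with trimmed-mean (TMM) factors. In sham slices of vehicle-treated wild-type mice (n = 4) Mbp, a main protein of compact myelin, had the highest level per length, 316 ± 70.6 CPM per kb of exon (SD), followed by Mobp with 125 ± 30 CPM per kb and Trf with 74.7 ± 12.6. The precursor genes lay lower, with Pdgfra at 5.7 ± 0.796 CPM per kb, Cspg4 at 2.75 ± 0.469, Gpr17 at 2.61 ± 0.438 and Enpp6 at 1.08 ± 0.439, and Klk6 was the lowest at 0.826 ± 0.396. The summed level of 8 thalamic markers, a check for neighbouring tissue in the slice, stayed between 138 and 193 CPM in every sample. That of 9 choroid plexus markers ran from 14.4 to 1224 CPM in vehicle slices and from 14.9 to 29.9 CPM in BD10-2 slices. In bulk slices fewer cells of a type and less RNA per cell cannot be told apart.

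The promoters of 3 members are printed because these genes were called in at least 3 of the 8 stimulation and genotype comparisons below. Each window is 300 bases long, runs from 250 bases before to 50 bases after a RefSeq transcription start in GRCm38.p6, and is given 5′ to 3′ on the gene's own strand. The windows are Cspg4 at chr9:56864854-56865153, Gjb1 at chrX:101376126-101376425 and Klk6 at chr7:43824294-43824593, all on the plus strand. Gjb1 has 4 windows in the table and Klk6 has 2, and the window nearest the start of the annotated gene is shown. Capitals mark the letters ACAAAG, a core site of SOX factors such as Sox10.
Cspg4: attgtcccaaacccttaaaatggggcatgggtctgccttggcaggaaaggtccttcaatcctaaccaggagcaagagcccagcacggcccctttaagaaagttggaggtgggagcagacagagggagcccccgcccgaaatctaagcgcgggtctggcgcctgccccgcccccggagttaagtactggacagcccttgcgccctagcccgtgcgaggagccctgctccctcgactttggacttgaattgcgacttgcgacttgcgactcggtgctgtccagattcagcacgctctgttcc
Gjb1: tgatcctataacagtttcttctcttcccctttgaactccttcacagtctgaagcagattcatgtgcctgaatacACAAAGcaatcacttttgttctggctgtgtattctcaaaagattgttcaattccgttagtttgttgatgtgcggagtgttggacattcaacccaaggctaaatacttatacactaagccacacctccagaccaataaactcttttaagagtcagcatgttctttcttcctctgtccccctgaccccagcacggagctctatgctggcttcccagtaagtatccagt
Klk6: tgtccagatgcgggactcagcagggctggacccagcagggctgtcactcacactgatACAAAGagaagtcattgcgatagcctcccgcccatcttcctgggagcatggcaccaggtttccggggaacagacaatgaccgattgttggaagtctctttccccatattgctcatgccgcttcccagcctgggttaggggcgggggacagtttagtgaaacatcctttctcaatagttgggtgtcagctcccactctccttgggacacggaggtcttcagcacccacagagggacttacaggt
ACAAAG stood at bases 75 to 80 of the Gjb1 window and at bases 58 to 63 of the Klk6 window, and not in the Cspg4 window. Over both strands it was found in 18.7% of all 32851 windows and in 12 of the 35 windows (34.3%) that belong to the 25 members in the table. The AP-1 letters TGANTCA were found in 7.81% of all windows and in 0 of the members' 35, the MYRF letters CTGGCAC in 5.01% and 5 windows (14.3%), and the E-box CAGCTG in 16.3% and 4 windows (11.4%). These matches describe letters in short windows and not binding. Gpr17 was called in 4 comparisons and is not among the printed windows.

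A gene was called in a comparison when its edgeR quasi-likelihood adjusted p was under 0.05, adjusted over all 19477 genes. Stimulation was the comparison in which most members were called. In vehicle-treated wild-type mice 2 members were called higher and 3 lower in stimulated slices, against 8.21% and 4.1% of all genes (12.3% in either direction). The T41B mice on vehicle had 1 member higher and 6 lower, against 11.7% and 9.82% (21.5%). With BD10-2 there were 0 and 2 in wild-type mice, against 6.29% and 2.58% (8.87%), and 2 and 4 in T41B mice, against 13.3% and 9.52% (22.9%). Of the 35 members 5, 7, 2 and 6 were thus called, shares near or below those of all genes. The median log2 fold change of the members was 0.21, -0.33, 0.25 and -0.07 in the same order, and that of all genes lay between -0.05 and -0.01. Without Mouse1553 the second was -0.11 and without Mouse1510 it was -0.50, and the third ran from 0.14 without Mouse1590 to 0.48 without Mouse1565. The fourth ran from -0.13 without Mouse1564 to near 0 without Mouse1592.

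T41B slices had higher levels than wild-type slices for 3 members in vehicle sham slices (5% of all genes called higher and 1.24% lower, 6.24% in all) and for 1 in vehicle stimulated slices (4.74%, 1.05% and 5.79%). With BD10-2 there were 2 in sham slices (4.29%, 1.14% and 5.44%) and 4 in stimulated slices (8.2%, 2.36% and 10.6%), and no member was called lower. In all, 11 members were called in a stimulation comparison, 6 in a genotype comparison and 21 in neither. The shares of all genes above hold for single comparisons, so these totals over 4 comparisons have no such share beside them. No member was called between BD10-2 and vehicle. The stimulation comparisons share their samples with the genotype comparisons, so the same slices stand behind both.

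Separation of the groups, with every sample of one above every sample of the other, was also counted. After stimulation 2 members lay wholly higher and 3 wholly lower in vehicle-treated wild-type mice (9.33% and 6.72% of all genes), and 1 and 3 in T41B mice on vehicle (11.7% and 8.71%). With BD10-2 the numbers were 4 and 4 in wild-type mice (17.7% and 15.2%) and 2 and 2 in T41B mice (9.36% and 5.92%). Between genotypes 1, 1, 5 and 4 members lay wholly higher in T41B slices in vehicle sham, vehicle stimulated, BD10-2 sham and BD10-2 stimulated slices (6.25%, 6.78%, 10.5% and 9.32% of all genes). In the same order 0 members lay wholly lower (3.33%, 4.31%, 7.18% and 5.46%).

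**Figure D1:**
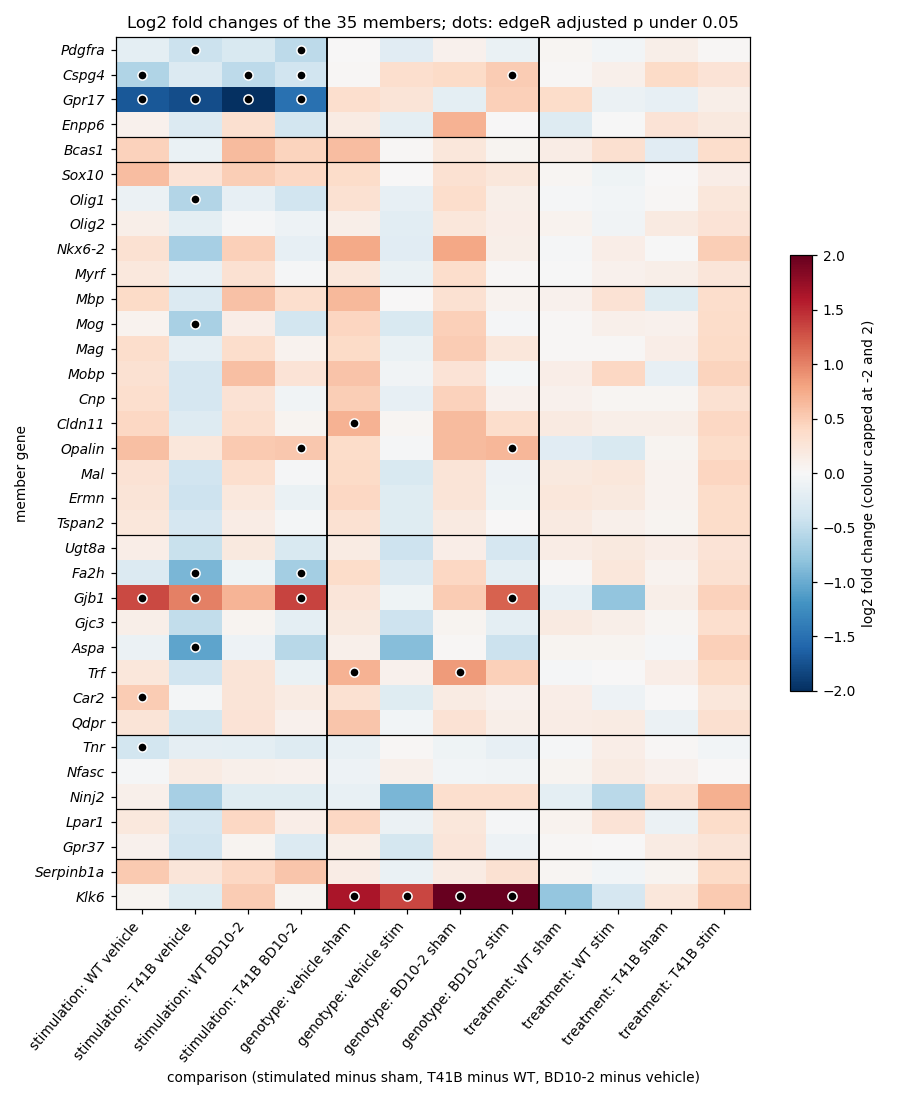
Log2 fold change (edgeR) of the 35 members, one per line and grouped by role, in the 4 stimulation, 4 genotype and 4 treatment comparisons, one per column; red is higher and blue lower in the first-named group, and a dot marks an adjusted p under 0.05. Gpr17 is blue with a dot in all 4 stimulation columns and Klk6 is red with a dot in all 4 genotype columns, and the treatment columns hold no dot.

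The clearest change was in the committed-precursor gene Gpr17, a receptor that holds cells back from maturing. In vehicle-treated wild-type mice Gpr17 stood at 13.8, 12.5, 11.3 and 16.6 CPM in sham slices and at 3.29, 2.98, 5.96 and 4.49 CPM in stimulated slices. In vehicle-treated T41B mice the sham values were 12.6, 20.4, 14.9 and 20.5 CPM and the stimulated values 4.54, 5.22, 4.84 and 5.4 CPM. With BD10-2 the wild-type values were 17.5, 15.2 and 19.4 CPM in sham and 3.57, 4.53 and 3.6 CPM in stimulated slices, and the T41B values were 14.7, 9.85, 9.13, 17 and 25.3 CPM against 4.23, 3.78, 4.71, 4.4 and 9.19 CPM. Sham and stimulated slices did not overlap in 3 of the 4 sets of mice, and in BD10-2-treated T41B mice the highest stimulated value, 9.19 CPM, just passed the lowest sham value, 9.13 CPM. Gpr17 fell by 1.69 on the log2 scale in vehicle-treated wild-type mice (SE 0.28, edgeR adjusted p = 7.62e-05), a 3.23-fold lower level. It fell by 1.78 in T41B mice on vehicle (SE 0.28, edgeR adjusted p = 1.86e-05), and with BD10-2 by 2.17 in wild-type mice (SE 0.32, adjusted p = 2.42e-05). In the T41B mice given BD10-2 it was 2.82-fold lower (SE of the log2 change 0.24, adjusted p = 2.43e-05). Differences within a mouse, here and below, are of log2(CPM + 1). The stimulated slice was lower in 14 of 14 mice, by 0.82 to 2.02, a pattern that 5.34% of all genes shared. Being called lower in all 4 comparisons was found for 1.02% of all genes and, among the members, for Gpr17 alone. Lims2 overlaps Gpr17 on the opposite strand and the strand setting of the counting is not given in the sources used here, so reads of the pair may have been mixed. Lims2 also fell in all 4 comparisons, by 0.78 (edgeR adjusted p = 0.00935), 1.06 (2.74e-04), 0.84 (0.0175) and 0.90 (3.16e-04), from means of 4.78 to 5.6 CPM to means of 2.59 to 2.97 CPM. Markers of other glia moved in the same comparisons. Of 10 microglial markers 7, 8, 8 and 7 were called lower after stimulation, and the median of their sum was 302 CPM in sham and 156 CPM in stimulated slices of vehicle-treated wild-type mice, 828 and 400 CPM in T41B mice on vehicle, and with BD10-2 355 and 164 CPM in wild-type and 889 and 569 CPM in T41B mice. Of 10 astrocyte markers 4, 4, 0 and 4 were called higher, and the part of either cell type in the member changes was not tested.

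Pdgfra (chr5:75152292-75198215, GRCm38), the growth-factor receptor of precursors, was lower in the stimulated slice of 14 of 14 mice, by 0.15 to 0.62 in log2(CPM + 1). In vehicle-treated T41B mice its sham values were 60.1, 61.1, 49.5 and 59.9 CPM and its stimulated values 44.7, 45.1, 35.4 and 45.9 CPM. In BD10-2-treated T41B mice they were 67.1, 63.3, 64, 54.2 and 64.8 CPM against 44, 41.2, 42.7, 39.8 and 50.4 CPM. The groups did not overlap in either set, and Pdgfra fell by 0.43 with vehicle (SE 0.11, edgeR adjusted p = 0.00369) and by 0.52 with BD10-2 (SE 0.09, adjusted p = 1.10e-04). In wild-type mice the log2 fold changes were -0.20 with vehicle (adjusted p = 0.239) and -0.30 with BD10-2 (adjusted p = 0.134), and neither passed the threshold. With the mouse as a block in the fit, both did, at -0.20 (adjusted p = 0.0265) and -0.35 (adjusted p = 0.015).

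Cspg4 (chr9:56865033-56899870), the NG2 proteoglycan on the surface of precursors, was also lower in 14 of 14 mice, by 0.09 to 0.80 in log2(CPM + 1). In vehicle-treated wild-type mice it stood at 35.2, 28.4, 28 and 39.6 CPM in sham and 20.8, 20.2, 23.6 and 22.2 CPM in stimulated slices, which did not overlap. Cspg4 fell there by 0.60 (SE 0.14, edgeR adjusted p = 0.00307). With BD10-2 it fell by 0.52 in wild-type mice (SE 0.15, adjusted p = 0.032) and by 0.38 in T41B mice (SE 0.12, adjusted p = 0.0193), again without overlap. The groups overlapped in T41B mice on vehicle, and the change was -0.28 (adjusted p = 0.135; with the mouse as a block -0.31, adjusted p = 0.0201). The BD10-2 wild-type call was lost without any of Mouse1565, Mouse1571, Mouse1586 or Mouse1590 (adjusted p 0.0742 to 0.144) and with batch in the fit (0.0571). The BD10-2 T41B call was lost without Mouse1563 (0.0718) or Mouse1570 (0.0522). Pericytes also carry Cspg4, and of 8 pericyte markers 5, 2, 4 and 4 were called lower after stimulation, in the order vehicle wild-type, vehicle T41B, BD10-2 wild-type and BD10-2 T41B. Their summed level ran from 126 to 133 CPM in sham and 41.2 to 122 CPM in stimulated slices of vehicle-treated wild-type mice, and from 73 to 135 against 93.7 to 141 CPM in vehicle-treated T41B mice. With BD10-2 it ran from 115 to 137 against 75.1 to 107 CPM in wild-type and from 122 to 156 against 102 to 145 CPM in T41B mice, and the part of pericytes in the Cspg4 values was not tested. Fibroblasts carry Pdgfra, and of 8 fibroblast markers 0, 1, 2 and 2 were called lower and 0 higher in the same order, while 3, 5, 0 and 3 had positive changes. Their median sum was 33.5 CPM in sham and 54.1 CPM in stimulated slices of vehicle-treated wild-type mice and 35.9 and 48.9 CPM in T41B mice on vehicle. The BD10-2 medians were 24.1 and 19.8 CPM in wild-type and 29.7 and 32.3 CPM in T41B mice. The ranges overlapped in all 4 sets, and the part of fibroblasts in the Pdgfra values was not tested.

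The fourth precursor gene, Enpp6, an enzyme of choline metabolism in newly differentiating cells, was not called with stimulation by edgeR or in any alternative fit. Its log2 fold changes with stimulation were 0.08, -0.28, 0.32 and -0.36, with 9 of 14 mice lower. Bcas1, which marks cells that are starting to myelinate, had changes of 0.46, -0.13, 0.63 and 0.45 and was higher in 11 of 14 mice. With stimulation it was called only in BD10-2-treated T41B mice, and only with the groups compared alone in the fit. Among 20 further precursor and early-oligodendrocyte genes that are not members, 1, 3, 2 and 1 were called lower and 0, 2, 0 and 2 higher with stimulation. Neu4, a sialidase, fell in all 4 comparisons, from 5.26 to 1.32 CPM, 6.84 to 1.23, 5.83 to 1.53 and 6.22 to 1.43 CPM (log2 changes of -1.98, -2.48, -1.95 and -2.07, edgeR adjusted p = 1.89e-05, 3.44e-07, 1.43e-04 and 3.36e-07). Chst11, a chondroitin sulfotransferase, rose in both T41B sets, by 0.71 (2.60e-05) and 0.91 (3.84e-08), so the wider list did not move in a single direction.

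**Figure D2:**
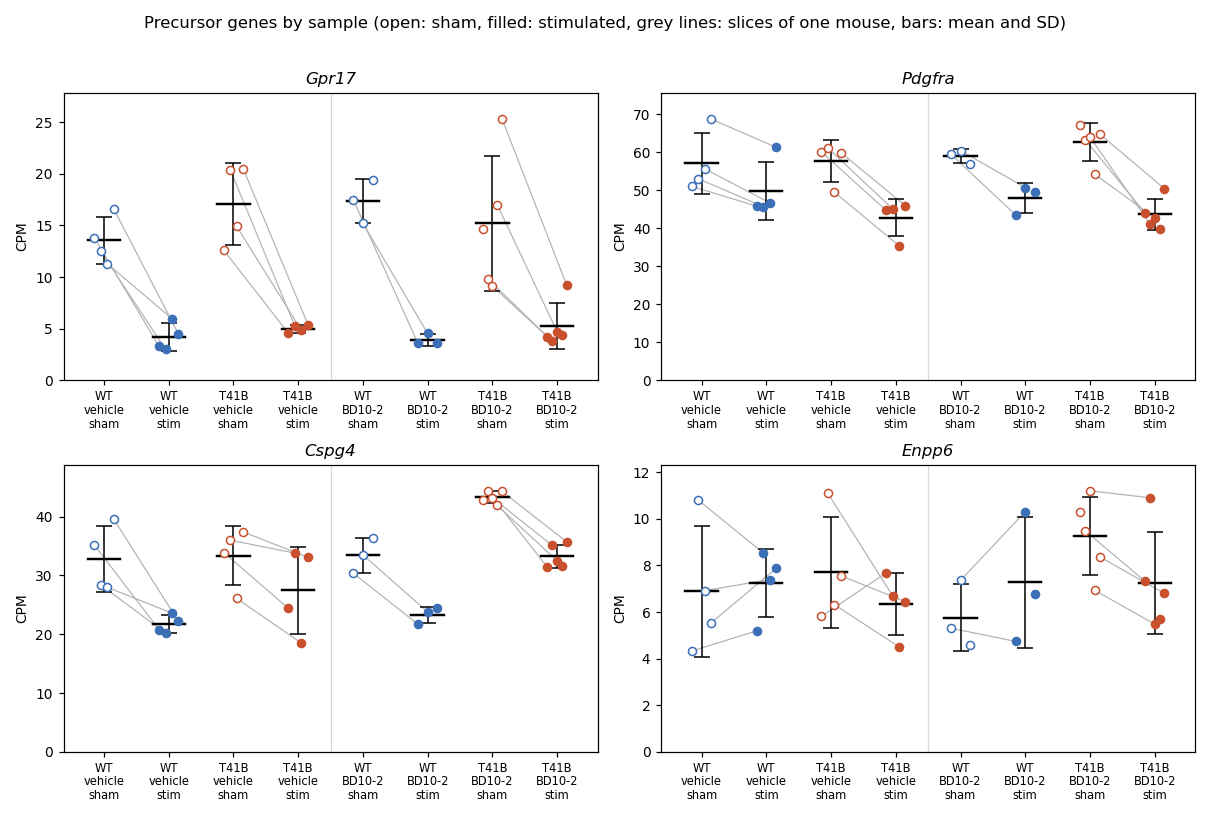
CPM of the 4 precursor genes in every sample of the 8 groups (open points sham, filled points stimulated, grey lines join slices of the same mouse, bars give mean and SD). All 14 lines fall for Gpr17, Pdgfra and Cspg4, and for Enpp6 they run both ways.

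Among the transcription factors, Olig1, a basic helix-loop-helix factor of the whole lineage, was the only one called by edgeR with stimulation. In vehicle-treated T41B mice Olig1 was 76, 120, 123 and 97.6 CPM in sham and 72, 72.4, 55.4 and 77.7 CPM in stimulated slices, and the groups overlapped through the lowest sham value. Olig1 (chr16:91269772-91271933) fell by 0.59 (SE 0.20, edgeR adjusted p = 0.0314), a call that was lost without Mouse1551 (0.134) or Mouse1553 (-0.40, 0.246). It was lower in 12 of 14 mice. In BD10-2-treated T41B mice the change was -0.39 (adjusted p = 0.107; with the mouse as a block -0.38, adjusted p = 0.0423), and it was also called with library totals. Sox10, which drives myelin genes directly, went the other way in 12 of 14 mice. Its sham values of 41.1, 42, 35.2 and 60.5 CPM and stimulated values of 56.2, 53.2, 74.5 and 91.7 CPM in vehicle-treated wild-type mice gave a log2 change of 0.62 (adjusted p = 0.0751; with the mouse as a block 0.62, adjusted p = 0.00226), and in BD10-2-treated T41B mice it was 0.41 (0.155; blocked 0.40, 0.0242). With batch in the fit Sox10 was called in vehicle-treated wild-type mice. Olig2, Nkx6-2 and Myrf were not called, with changes of -0.19 to 0.12, -0.67 to 0.48 and -0.15 to 0.30, except that Nkx6-2 was called in vehicle-treated T41B mice with library totals and without Mouse1510.

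Of the 10 myelin sheath genes, edgeR called 0, 1, 0 and 1 with stimulation in vehicle wild-type, vehicle T41B, BD10-2 wild-type and BD10-2 T41B mice. All 10 had positive log2 fold changes in wild-type mice with either treatment (medians 0.32 and 0.33). In vehicle-treated wild-type mice Mbp, Mag, Mobp, Cnp, Cldn11, Opalin and Mal were higher in the stimulated slice of 4 of 4 mice. For Mbp the rise was 0.21 to 0.52 in log2(CPM + 1). Mbp, the myelin basic protein, was 2678 ± 598 CPM in sham and 3481 ± 916 CPM in stimulated slices of vehicle-treated wild-type mice (SD, n = 4 and 4, log2 change 0.38, edgeR adjusted p = 0.392; with the mouse as a block 0.37, 0.351). In wild-type mice on BD10-2, Mbp was 3371, 3018 and 2131 CPM in sham and 3800, 5078 and 3865 CPM in stimulated slices, with no overlap and a change of 0.58 (SE 0.31, edgeR adjusted p = 0.267). Mobp, another protein of compact myelin, did not overlap there either, at 627 to 1139 against 1211 to 1714 CPM (0.60, SE 0.32, adjusted p = 0.269), in a comparison where 17.7% of all genes lay wholly higher. The T41B mice on vehicle had 9 of 10 negative (median -0.33), and in BD10-2-treated T41B mice 5 were negative and 5 positive. Without Mouse1553 the T41B vehicle result was 6 of 10 negative (median -0.02), and without Mouse1510 it was 9 of 10 (median -0.56). In wild-type mice on BD10-2 the median was 0.16 without Mouse1590, with 8 of 10 positive, and 0.53 without Mouse1565. In T41B mice on BD10-2, 7 of 10 were positive without Mouse1592 (median 0.08) and 4 without Mouse1564 (median -0.06). Only 2 of the 10, Mog and Opalin, were called in any stimulation comparison. Mog, a protein of the outermost myelin layer (chr17:37010743-37023398), stood at 22.4, 43.2, 45.5 and 30.8 CPM in sham and 24, 26.4, 14.5 and 25.4 CPM in stimulated slices of vehicle-treated T41B mice, which overlapped. Mog fell there by 0.65 (SE 0.23, adjusted p = 0.0397), a call lost without Mouse1551 (-0.63, adjusted p = 0.121) or Mouse1553 (-0.35, 0.382) and with batch in the fit (-0.60, 0.0619). Opalin, a sialylated membrane protein of mature oligodendrocytes (chr19:41061710-41077113), was higher in the stimulated slice of 13 of 14 mice. In BD10-2-treated T41B mice it went from 26.5, 16.8, 26.1, 22.6 and 22.8 CPM to 29.7, 39.3, 43.8, 27.1 and 27 CPM without overlap, and rose by 0.54 (SE 0.18, adjusted p = 0.0336). That call was lost without Mouse1563 (0.0959), Mouse1564 (0.0894) or Mouse1570 (0.171). In vehicle-treated wild-type mice Opalin also did not overlap between groups, and its change of 0.60 had an edgeR adjusted p of 0.0561 (with the mouse as a block 0.61, 0.00472). DESeq2 called it there, as did edgeR without the filter, with only the groups compared and with batch in the fit.

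Gjb1 and the lipid gene Fa2h moved in opposite directions. Gjb1 (chrX:101376378-101385629) encodes connexin 32, a gap-junction protein of oligodendrocytes and myelin. It stood at 8, 10, 6.79 and 9.7 CPM in sham and 15.3, 15.9, 34.1 and 20.4 CPM in stimulated slices of vehicle-treated wild-type mice, with no overlap. In T41B mice on vehicle it was 5.56, 12.6, 13.7 and 8.56 CPM against 10.9, 14.2, 36.9 and 19.7 CPM, with overlap. In BD10-2-treated T41B mice it was 11.7, 7.93, 12.8, 12.7 and 10.2 CPM against 27.4, 34.4, 37, 21.2 and 21 CPM, with no overlap. In log2(CPM + 1) the stimulated slice was higher in 14 of 14 mice, by 0.17 to 2.17 with a median of 0.99. A rise in every paired mouse was shared by 9.08% of all genes. Gjb1 rose by 1.32 in vehicle-treated wild-type mice (SE 0.32, edgeR adjusted p = 0.00572), by 1.01 in T41B mice on vehicle (SE 0.32, adjusted p = 0.0212) and by 1.35 in T41B mice on BD10-2 (SE 0.28, adjusted p = 5.74e-04). In BD10-2-treated wild-type mice the change was 0.68 (adjusted p = 0.276). The first call was lost without Mouse1522 (0.90, adjusted p = 0.112) and the second without Mouse1553 (0.73, 0.123) or Mouse1579 (0.95, 0.0768). The 2 stimulated libraries of Mouse1592 differed 2.78-fold for Gjb1, 10.7 against 29.7 CPM, so a single library gives this gene with limited precision.

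Fa2h makes the hydroxylated fatty acids of myelin galactolipids (chr8:111345135-111393824). In T41B mice on vehicle Fa2h stood at 20.1, 38.3, 39.5 and 25.6 CPM in sham and 19.6, 20.1, 8.31 and 17.4 CPM in stimulated slices. In BD10-2-treated T41B mice the values were 34.6, 20.8, 36.3, 34 and 36.2 CPM against 12.7, 26.1, 16.9, 21.5 and 23.4 CPM. The lowest sham value lay level with the highest stimulated value with vehicle and below 3 of the stimulated values with BD10-2, so the groups overlapped. Fa2h fell by 0.92 with vehicle (SE 0.28, edgeR adjusted p = 0.0192) and by 0.68 with BD10-2 (SE 0.25, adjusted p = 0.0463), and it was lower in 13 of 14 mice. The vehicle call was lost without Mouse1551 (-0.91, 0.0658) or Mouse1553 (-0.55, 0.224). The BD10-2 call was lost without any of Mouse1557, Mouse1563, Mouse1564, Mouse1570, Mouse1572 or Mouse1592 (0.0654 to 0.149) and with batch in the fit (0.0613). In wild-type mice the changes were -0.28 and -0.08.

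Aspa (chr11:73304992-73329596) encodes aspartoacylase, which frees acetate from N-acetylaspartate for myelin lipid synthesis. In T41B mice on vehicle Aspa stood at 9.44, 15.3, 12.4 and 10.5 CPM in sham and 7.36, 7.66, 2.37 and 5.4 CPM in stimulated slices, with no overlap. Aspa fell by 1.06 (SE 0.30, edgeR adjusted p = 0.0108), and without Mouse1553 the change was -0.78 (adjusted p = 0.0905). Car2, a carbonic anhydrase of oligodendrocytes, was 96.9, 123, 90 and 133 CPM in sham and 130, 142, 142 and 213 CPM in stimulated slices of vehicle-treated wild-type mice, which overlapped. Car2 rose by 0.50 (SE 0.16, adjusted p = 0.042), a call lost without any of Mouse1509, Mouse1513, Mouse1522 or Mouse1524 (0.0522 to 0.134). In the same comparison 9 of 9 choroid plexus markers were called higher, their sum running from 16.3 to 21.5 CPM in sham and 14.4 to 1224 CPM in stimulated slices, and the part of choroid plexus in the Car2 values was not tested. Ugt8a, which makes galactosylceramide, Gjc3, another connexin, Trf, the iron carrier transferrin, and Qdpr, a pteridine reductase, were not called with stimulation. Gjc3 had a change of -0.49 in vehicle-treated T41B mice (adjusted p = 0.0697; with the mouse as a block -0.50, 0.0465) and was called there with library totals and without Mouse1510 too. Aspa was called in BD10-2-treated T41B mice only with the groups compared alone in the fit.

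**Figure D3:**
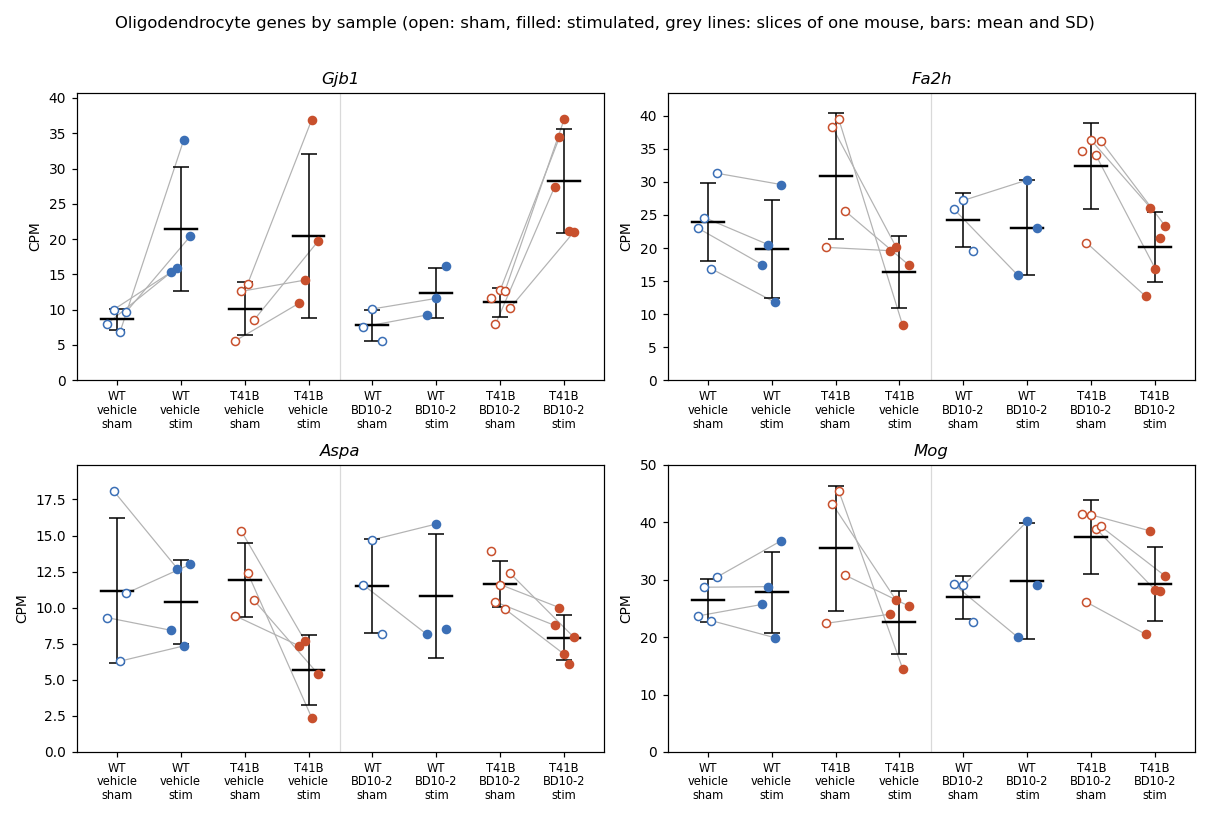
CPM of Gjb1, Fa2h, Aspa and Mog in every sample (open points sham, filled points stimulated, grey lines join slices of the same mouse, bars give mean and SD). Every line rises for Gjb1 and 13 of 14 fall for Fa2h, while for Mog the steepest fall is that of the vehicle-treated T41B Mouse1553, from 45.5 to 14.5 CPM.

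Of the matrix and adhesion genes, Tnr, the tenascin of perineuronal nets and nodes, was 309, 334, 328 and 316 CPM in sham and 254, 264, 259 and 224 CPM in stimulated slices of vehicle-treated wild-type mice, with no overlap. Tnr fell by 0.36 (SE 0.11, edgeR adjusted p = 0.0276) and was lower in 13 of 14 mice. The call was lost without any of Mouse1509, Mouse1513, Mouse1522 or Mouse1524 (0.0746 to 0.13) and without the filter on low counts (0.0781). Of 10 neuron markers 9, 10, 9 and 10 had negative changes with stimulation, and 1, 0, 2 and 3 were called lower, in the order vehicle wild-type, vehicle T41B, BD10-2 wild-type and BD10-2 T41B. The median of their sum was 6069 CPM in sham and 5166 CPM in stimulated slices of vehicle-treated wild-type mice, 5263 and 4483 CPM in T41B mice on vehicle, and with BD10-2 5624 and 4483 CPM in wild-type and 4748 and 4179 CPM in T41B mice. The part of neurons in the Tnr values was not tested. Nfasc, the neurofascin of nodes and paranodes, was not called and ranged from -0.03 to 0.16. Ninj2, a small adhesion protein, lay near 1 CPM or below and was not called. The receptors Lpar1 and Gpr37 were not called, with Gpr37 at -0.39 in vehicle-treated T41B mice (adjusted p = 0.1; with the mouse as a block -0.38, 0.0207). With library totals Gpr37 and Tnr were called in BD10-2-treated T41B mice, and without Mouse1553 Tnr was called in T41B mice on vehicle. Serpinb1a, a protease inhibitor of a mature state, had positive changes in all 4 sets, of 0.53, 0.24, 0.42 and 0.56, and was called only with the mouse as a block and only in BD10-2-treated T41B mice (0.66, adjusted p = 0.0424). With only the groups compared in the fit, the calls of Car2 in vehicle-treated wild-type mice (0.1) and of Fa2h (0.0523), Gjb1 (0.0975) and Mog (0.0934) in T41B mice on vehicle were lost. With the mouse as a block the called members numbered 8, 10, 3 and 9 in the 4 sets, against 20%, 29.5%, 6.6% and 23.9% of all genes, and no call made without the block was lost.

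Precursor genes lay below myelin genes in their response to stimulation in 3 of the 4 sets of mice. The median log2 fold change of the 4 precursor genes less the median of the 10 myelin genes was -0.72 in vehicle-treated wild-type mice, -0.74 in wild-type mice on BD10-2 and -0.47 in T41B mice on BD10-2. In T41B mice on vehicle it was -0.03, since both medians were negative (-0.36 and -0.33). Without Mouse1553 that value was -0.31, and leaving out Mouse1510, Mouse1551 or Mouse1579 gave -0.08 to 0.11. The same difference can be taken per sample, from the mean log2(CPM + 1) of each gene group. It was -2.53 ± 0.149 in sham and -3.37 ± 0.346 in stimulated slices of vehicle-treated wild-type mice, and -2.83 ± 0.466 and -3.17 ± 0.207 in T41B mice on vehicle (SD, n = 4 each). With BD10-2 it was -2.54 ± 0.307 and -3.5 ± 0.155 in wild-type mice (n = 3 each) and -2.75 ± 0.196 and -3.45 ± 0.286 in T41B mice (n = 5 each). On this measure too the groups overlapped only in T41B mice on vehicle, where the mean was nonetheless lower after stimulation. The precursor mean itself was 4.42 ± 0.138 in sham and 3.88 ± 0.172 in stimulated slices of vehicle-treated wild-type mice, and 4.55 ± 0.227 and 3.92 ± 0.206 in T41B mice (SD, n = 4 each). With BD10-2 it was 4.48 ± 0.0451 and 3.87 ± 0.2 in wild-type mice (n = 3 each), and 4.68 ± 0.125 and 4.04 ± 0.165 in T41B mice (n = 5 each). Every stimulated sample lay below every sham sample of its own set on this mean, while the myelin means overlapped in all 4 sets. Gpr17, whose reads may be mixed with those of Lims2, had the largest change of the 4 genes in each set. The mean of the other 3 genes, taken after the data were seen, was 4.61 ± 0.146 in sham and 4.39 ± 0.14 in stimulated slices of vehicle-treated wild-type mice and 4.68 ± 0.209 and 4.36 ± 0.259 in T41B mice on vehicle (SD, n = 4 each). With BD10-2 it was 4.58 ± 0.104 and 4.4 ± 0.221 in wild-type (n = 3 each) and 4.93 ± 0.12 and 4.52 ± 0.146 in T41B mice (n = 5 each). Without Gpr17 the sham and stimulated samples thus overlapped in 3 of the 4 sets, and did not in T41B mice on BD10-2. Within mice that mean was lower in the stimulated slice of every paired mouse, such as 4.43 to 3.98 in Mouse1553 and 4.70 to 4.61 in Mouse1571. The difference of medians without Gpr17 was -0.52, 0.05, -0.63 and -0.40 in the order vehicle wild-type, vehicle T41B, BD10-2 wild-type and BD10-2 T41B. Between genotypes the difference of medians was -0.33, 0.18, -0.15 and 0.21 in vehicle sham, vehicle stimulated, BD10-2 sham and BD10-2 stimulated slices. Without Gpr17 the differences of medians were -0.40, -0.04, -0.01 and -0.03. The per-sample difference, another measure, had a pooled SD of 0.35, 0.28, 0.24 and 0.25 between samples. That SD is no standard error of the differences of medians, and no test was made.

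T41B slices had more Klk6 than wild-type slices in all 4 comparisons, and this was the only member called in each. Klk6 encodes a secreted serine protease of mature oligodendrocytes (chr7:43824499-43832030). In sham slices with vehicle it stood at 0.771, 1.8, 0.692 and 1.73 CPM in wild-type and 3, 5.68, 3.08 and 3.67 CPM in T41B mice. In stimulated slices with vehicle the values were 0.834, 0.937, 2.12 and 1.23 CPM against 3.5, 3.29, 3.52 and 2.73 CPM. With BD10-2 they were 0.866, 0.835 and 0.379 CPM against 4.87, 4.82, 4.85, 3.3 and 4.61 CPM in sham slices, and 0.568, 1.36 and 1.18 CPM against 6.53, 6.47, 3.83, 3.08 and 3.58 CPM in stimulated slices. The genotypes did not overlap in any of the 4 comparisons. The log2 difference was 1.64 in vehicle sham slices (SE 0.34, edgeR adjusted p = 0.00234), 1.34 in vehicle stimulated slices (SE 0.33, adjusted p = 0.0115), 2.64 in BD10-2 sham slices (SE 0.37, adjusted p = 2.28e-05) and 2.19 in BD10-2 stimulated slices (SE 0.36, adjusted p = 7.85e-05). Called higher in all 4 were 1.99% of all genes. With batch in the fit the differences were 1.26 (adjusted p = 0.132), 1.01 (0.129), 2.29 (4.25e-04) and 2.07 (6.01e-04), so both vehicle calls were lost. Within the batches that hold both genotypes, 7 of 7 differences in log2(CPM + 1) were positive, from 0.53 to 2.02. They come from 1 or 2 mice per genotype, and adding 1 shrinks differences at these low levels. Without Mouse1513 the vehicle stimulated comparison gave 1.21 (adjusted p = 0.0502). The level is low, near 1 CPM in wild-type slices, and the 2 sham libraries of Mouse1557 differed 1.93-fold.

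Transferrin and claudin 11 were the other members called higher in sham T41B slices. Trf (chr9:103204001-103230444) carries the iron that oligodendrocytes need, and stood at 212, 274, 213 and 293 CPM in wild-type and 261, 505, 457 and 383 CPM in T41B mice with vehicle, which overlapped. With BD10-2 it was 266, 285 and 181 CPM against 445, 346, 461, 460 and 490 CPM, which did not. The log2 difference was 0.70 with vehicle (SE 0.19, edgeR adjusted p = 0.0255) and 0.85 with BD10-2 (SE 0.20, adjusted p = 0.00927). The vehicle call was lost without Mouse1509 (0.111), Mouse1522 (0.0834), Mouse1551 (0.141) or Mouse1553 (0.0847) and with batch in the fit (0.54, adjusted p = 0.375), and the BD10-2 call without Mouse1590 (0.67, 0.114). Cldn11, which seals the layers of the sheath (chr3:31149920-31164324), was 55.6, 69, 52.5 and 73.7 CPM in wild-type and 63.7, 129, 124 and 92 CPM in T41B mice with vehicle, which overlapped. Its difference of 0.70 (SE 0.21, adjusted p = 0.0392) was lost without Mouse1509, Mouse1513, Mouse1522, Mouse1551 or Mouse1553 (0.0679 to 0.18) and with batch in the fit (0.49, 0.514). In BD10-2 sham slices Cldn11 did not overlap between genotypes and its difference was 0.64 (adjusted p = 0.0846). Within single batches that hold both genotypes, the vehicle sham differences in log2(CPM + 1) were 0.29 and 0.38 for Trf and 0.27 and 0.32 for Cldn11. The BD10-2 sham differences were 1.43 and 0.74 for Trf, and all of these values come from 1 or 2 mice per genotype. With only the groups compared in the fit, both vehicle calls were lost (Trf 0.0837, Cldn11 0.102). Choroid plexus also makes Trf, and the sum of its 9 markers was 16.3 to 21.5 CPM in wild-type and 17.3 to 533 CPM in T41B vehicle sham slices, with 1 called higher. With BD10-2 it was 20 to 23.1 CPM and 15.5 to 29.9 CPM, with 0 called, and the part of choroid plexus in these values was not tested.

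In stimulated slices with BD10-2, Cspg4, Gjb1 and Opalin were also called higher in T41B mice. Cspg4 was 21.7, 23.8 and 24.4 CPM in wild-type against 31.4, 35.1, 32.5, 31.6 and 35.7 CPM in T41B mice (log2 difference 0.51, SE 0.14, edgeR adjusted p = 0.0144). Gjb1 was 9.24, 11.6 and 16.2 CPM against 27.4, 34.4, 37, 21.2 and 21 CPM (1.18, SE 0.33, adjusted p = 0.0168), and Opalin was 15.4, 24.2 and 23.9 CPM against 29.7, 39.3, 43.8, 27.1 and 27 CPM (0.66, SE 0.22, adjusted p = 0.0475). None of the 3 genes overlapped between genotypes. Cspg4 lost its call without Mouse1565 (0.0978). Gjb1 lost it without Mouse1564 (0.0521), Mouse1565 (0.151) or Mouse1571 (0.0697), and Opalin without Mouse1564, Mouse1565, Mouse1570, Mouse1571 or Mouse1586 (0.0636 to 0.335). With only the groups compared in the fit Opalin lost it too (0.0804). In the 1 batch with stimulated BD10-2 slices of both genotypes, 2 mice each, the differences in log2(CPM + 1) were 0.48 for Cspg4, 1.35 for Gjb1 and 0.80 for Opalin. Of 8 pericyte markers 2 were called higher in this comparison.

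**Figure D4:**
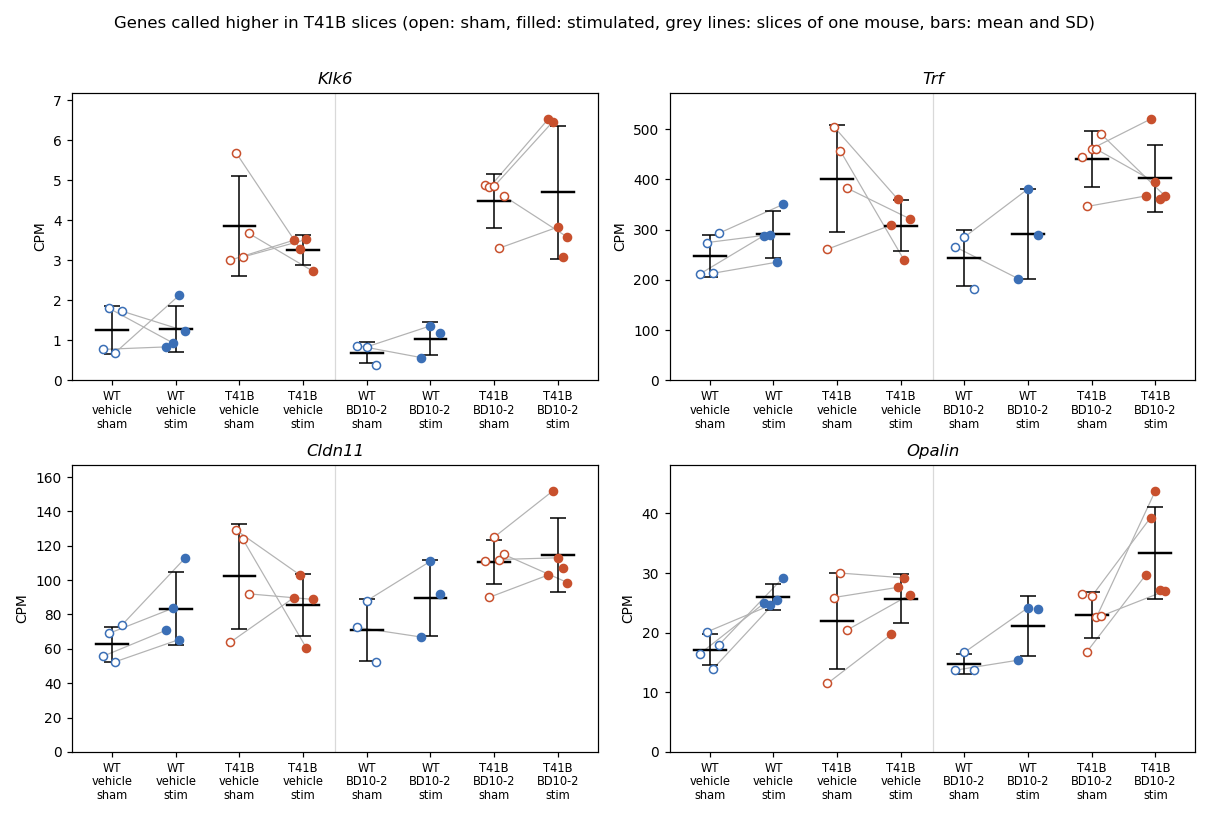
CPM of Klk6, Trf, Cldn11 and Opalin in every sample of the 8 groups (blue wild-type, red T41B, open points sham, filled points stimulated, bars give mean and SD). For Klk6 every T41B point lies above every wild-type point of the same treatment and stimulation, and for the other genes the groups overlap in some comparisons.

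Of the 18 myelin, lipid and junction members, 16 with vehicle and 17 with BD10-2 were not called by edgeR between genotypes in sham slices. With BD10-2, DESeq2 also called Cldn11, Nkx6-2 and Opalin there, and with only the groups compared in the edgeR fit these 3, Cspg4 and Enpp6 were added to the calls. Opalin was 13.7 to 16.7 CPM in wild-type and 16.8 to 26.5 CPM in T41B BD10-2 sham slices, which did not overlap, and its difference was 0.64 (SE 0.22, edgeR adjusted p = 0.0828). All 18 myelin, lipid and junction members had positive log2 differences in T41B against wild-type sham slices, with a median of 0.38 with vehicle and 0.30 with BD10-2. The vehicle median was 0.27 to 0.56 when a mouse was left out, and the BD10-2 median was 0.15 without Mouse1590, with 14 of 18 positive. Within batches A and C, with 1 vehicle sham mouse per genotype each, differences in log2(CPM + 1) went both ways. Gjb1 had -0.25 and -0.16, Opalin -0.25 and 0.17, Fa2h 0.23 and -0.28, and Mbp 0.44 and -0.05. Mog, Car2 and Aspa also differed in sign, and Trf and Cldn11 were positive in both. Among these genes in BD10-2 sham slices of batches D and I, only Aspa was negative (-0.37 in I). In stimulated slices 15 of 18 were negative with vehicle (median -0.20) and 9 of 18 with BD10-2 (median 0.04). Without Mouse1524 the vehicle count was 10 of 18 (median -0.02) and without Mouse1553 it was 13 (median -0.08). Without Mouse1571 only 2 of 18 were negative with BD10-2 (median 0.23), and without Mouse1564 it was 12 (median -0.09). Over all 35 members 32 were positive in each sham comparison, against medians of 0.00 and 0.01 for all genes, and without Mouse1590 28 were in the BD10-2 comparison. These signs are not independent of each other, because the myelin genes rose and fell together from sample to sample. In vehicle-treated T41B sham slices Mouse1510 was lowest for 10 of 10 myelin genes, and without it 8 members were called in place of 3, adding Bcas1, Mbp, Nkx6-2, Opalin and Qdpr. Without Mouse1524 there were 5, without Mouse1513 there were 2, and without Mouse1509, Mouse1522, Mouse1551 or Mouse1553 there was 1.

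The summed level of the 10 myelin genes shows this spread, though mainly that of Mbp and Mobp. In vehicle-treated wild-type sham slices these had means of 2678 and 858 CPM, in a mean sum of 4227 CPM. In sham slices of vehicle-treated wild-type mice it was 3889, 4832, 3101 and 5085 CPM, and in those of T41B mice it was 4053, 7677, 8967 and 5018 CPM. In stimulated slices of the same mice it was 5023, 5496, 3920 and 7177 CPM in wild-type mice and 7132, 6590, 2839 and 4541 CPM in T41B mice. All 4 wild-type mice were thus higher in the stimulated slice, while in T41B mice 1 was higher and 3 were lower, the largest step being that of Mouse1553 from 8967 to 2839 CPM. Mouse1553 was the highest of its group for 6 of 10 myelin genes in the sham slice and the lowest for 9 of 10 in the stimulated slice. Mouse1522 was lowest for 9 of 10 in both wild-type vehicle groups, and Mouse1524 was highest for 10 of 10 in the stimulated group. With BD10-2 the sums were 5281, 4965 and 3331 CPM in wild-type sham slices, 5794, 7948 and 6008 CPM in wild-type stimulated slices, 5986, 4234, 6346, 5789 and 5941 CPM in T41B sham slices and 6416, 9940, 6071, 6426 and 5281 CPM in T41B stimulated slices. Mouse1590 was lowest for 9 of 10 in wild-type sham slices, and Mouse1564 was highest for 9 of 10 in T41B stimulated slices. Within a group the highest sum was 1.37 to 2.51 times the lowest. For the precursor genes that ratio was 1.04 to 1.44.

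**Figure D5:**
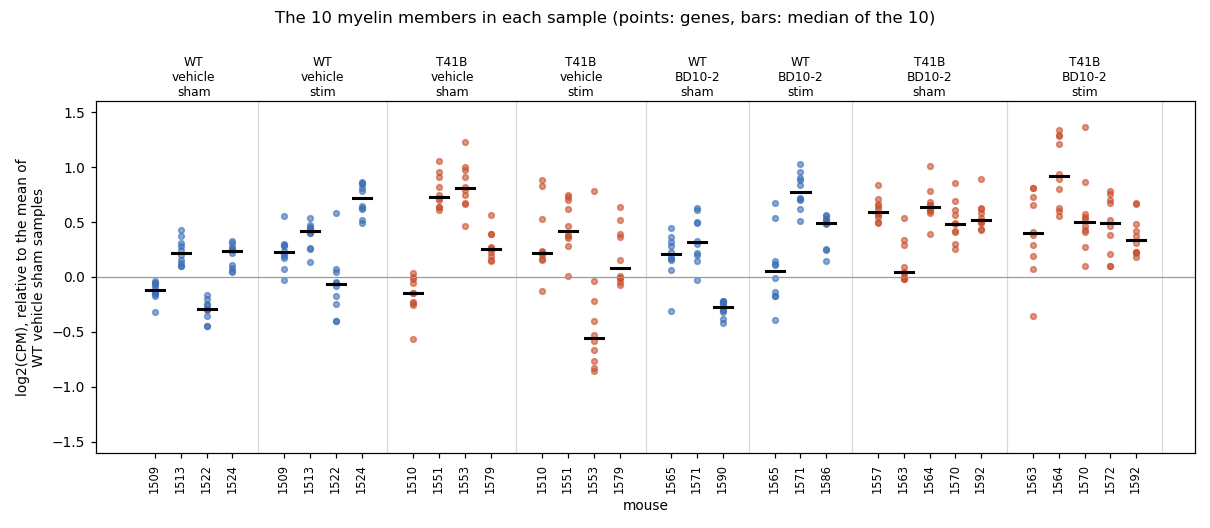
Level of each of the 10 myelin genes in every sample relative to the mean of vehicle-treated wild-type sham slices (log2 scale), samples grouped by genotype, treatment and stimulation and named by mouse. The 10 genes lie close together within most samples, low in the stimulated slice of Mouse1553 and high in the stimulated slice of Mouse1564.

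Whether stimulation acted differently in T41B and wild-type mice was tested as an interaction in the same fit. With vehicle, 32 of 35 members had a negative interaction, with a median of -0.54, and all 10 myelin genes were negative (median -0.65). No member was called (smallest edgeR adjusted p = 0.507), and 10 had an unadjusted p under 0.05 (Aspa, Car2, Cldn11, Ermn, Gjc3, Mal, Mog, Nkx6-2, Qdpr and Trf), against 8.64% of all genes. With only the groups compared in the fit 3 members did (Mog, Nkx6-2 and Trf). Without Mouse1553 the median was -0.30 and 1 member had an unadjusted p under 0.05. Without Mouse1509, Mouse1524 or Mouse1551 that number was 4, 3 and 3, and without Mouse1510 it was 21. With BD10-2, 30 members had a negative interaction (median -0.25), none was called and 0 had an unadjusted p under 0.05 (4.35% of all genes). Without Mouse1590 24 were negative (median -0.09), and without Mouse1565 the median was -0.44 and 3 members had an unadjusted p under 0.05. Both interactions had 0% of all genes called by edgeR, and DESeq2 called 1 gene with vehicle and 20 with BD10-2, none of them a member.

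BD10-2 against vehicle gave no called member, and 0% of all genes were called by edgeR in any of the 4 treatment comparisons, while 373, 1090, 431 and 760 genes had an unadjusted p under 0.05. The number of members with an unadjusted p under 0.05 in the edgeR test was 0 in wild-type sham slices, 1 in wild-type stimulated slices (Gjb1), 1 in T41B sham slices (Cspg4) and 3 in T41B stimulated slices (Cldn11, Cspg4 and Trf), and DESeq2 called 0 members in each. The count of 3 was 8 without Mouse1510 or Mouse1551, 11 without Mouse1563, 5 without Mouse1572 or Mouse1592, 2 without Mouse1570 or Mouse1579 and 0 without Mouse1564. With library totals and with no filter it was 7 (812 and 1332 of all genes). With DESeq2 and with only the groups compared it was 5 (751 and 567 of all genes). In wild-type stimulated slices 1 member lay wholly higher and 1 wholly lower with BD10-2 (3.43% and 3.33% of all genes), and in wild-type sham slices 0 did (1.71% and 1.82%). In T41B mice 1 member lay wholly higher in sham (0.406%) and 1 in stimulated slices (0.739%). The members positive with BD10-2 numbered 25 of 35 in wild-type sham slices (median 0.04), 22 in wild-type stimulated slices (0.09), 26 in T41B sham slices (0.07) and 34 in T41B stimulated slices (0.35). Leaving out 1 mouse turned the first 3 medians negative, with 13 positive without Mouse1522 and 14 without Mouse1571 in wild-type sham slices (-0.04 and -0.03), 10 without Mouse1571 in wild-type stimulated slices (-0.09) and 11 without Mouse1510 in T41B sham slices (-0.07). In T41B stimulated slices the median was 0.19 without Mouse1553 and 0.23 without Mouse1564, which had the lowest and the highest myelin sum of these 2 groups. Each batch holds a single treatment, so batch and treatment cannot be told apart. The interaction of BD10-2 with stimulation in T41B mice was positive for 30 of 35 members (median 0.29), with 0 called and 0 at an unadjusted p under 0.05, and without Mouse1553 for 23 of 35 (median 0.06). Without Mouse1510 it was positive for 31 of 35 (median 0.40), with 6 at an unadjusted p under 0.05.

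Of 44 further genes of mature oligodendrocytes and myelin that are not members, 6, 2, 3 and 5 were called higher and 0, 9, 1 and 4 lower with stimulation, in the same order of mice. Adamts4, a matrix protease of mature oligodendrocytes, rose in all 4 sets, from 34.3 to 103 CPM, 43 to 181, 35.2 to 114 and 44.7 to 225 CPM (log2 changes of 1.59, 2.07, 1.69 and 2.34, edgeR adjusted p = 4.30e-06, 3.01e-08, 2.11e-05 and 2.34e-10). Zfp488, a nuclear protein that promotes oligodendrocyte differentiation, fell in both T41B sets and in BD10-2-treated wild-type mice, by 1.03 (0.00218), 0.87 (0.00274) and 0.83 (0.0435). Gal3st1, which makes sulfatide, and Sox8, a relative of Sox10, fell in both T41B sets, Gal3st1 by 0.85 (0.00848) and 0.77 (0.0059) and Sox8 by 0.87 (0.00792) and 0.77 (0.00739). Between genotypes 6, 2, 5 and 4 of the 44 were called higher in T41B slices and 0 lower. The tetraspanin Cd9 was called in all 4 (1.49, 0.73, 1.37 and 1.12), and Gsn, the actin-severing gelsolin, in vehicle sham and both BD10-2 comparisons (0.89, 1.06 and 0.91). Cd9 and Gsn are made by other glia too. Of 10 microglial markers 9, 6, 8 and 10 were called higher in T41B slices, their sum running from 278 to 367 CPM in wild-type and 606 to 1138 CPM in T41B vehicle sham slices, and of 10 astrocyte markers 3, 2, 3 and 6 were called higher. The part of these cells in the genotype differences was not tested.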

How the data were processed

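RNA was sequenced from 200 ng of total RNA per sample with a stranded, ribosome-depleted library kit, per the labels' protocols. The values are RSEM expected counts per gene, as deposited by the authors. Per the submitters' processing notes, cutadapt 1.8.1, STAR 2.7.6a, RSEM 1.3.1, featureCounts 1.6 and SAMtools 1.11 were used with GRCm38.p6/mm10; the strand setting is not given in the sources used here. Expected counts were rounded, since 5.7% of values had decimals, and 4 pairs of libraries with the same mouse and condition were summed.

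Genes passing filterByExpr (minimum count 10) were tested with edgeR 4.0.16 in R 4.3.3 (quasi-likelihood, TMM factors 0.91 to 1.063, all 8 groups in 1 fit, 24 residual degrees of freedom, Benjamini-Hochberg over 19477 genes). All 35 members could be named. Of the related genes, at most the 3 called genes with the smallest adjusted p per comparison and direction were. The members and lists were chosen with earlier results of these data known. Sham and stimulated slices of 14 mice come from the same animal, and deviations from the group means correlated at 0.2 on average within a mouse and -0.06 between mice (52 pairs). Alternatives were library totals in place of TMM, no filter, DESeq2 1.42.0, only the groups compared, batch as a covariate, the mouse as a block, and leaving out each mouse; the precursor genes without Gpr17 were added after seeing the data. The procedure was tested on simulated data. Gene positions follow GENCODE M21 and promoters RefSeq.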

Additional observations from a re-analysis of the deposited data

Results flagged for a closer look

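Among the members called in a comparison, the highest or lowest sample of a group stood apart from the rest of its group in 11 of 84 cases, by a gap large against the group's range (Dixon's criterion at 95%). Chance alone gives about 1 in 20 groups where cases are independent. These cases are not, since several genes share the same samples, so no excess over chance is read from the count.

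The stimulated slice of Mouse1524, a wild-type mouse on vehicle, stood apart above its group for 3 genes. Car2 was 213 CPM there, with the next value at 142, Olig1 was 114 CPM with the next at 70.3, and Pdgfra was 61.3 CPM with the next at 46.7.

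Pdgfra was lowest in Mouse1553, a T41B mouse on vehicle, in both of its slices, at 49.5 CPM in sham (next 59.9) and 35.4 CPM in stimulated slices (next 44.7). The stimulated slice of Mouse1564, a T41B mouse on BD10-2, was highest for Cldn11 at 152 CPM (next 113) and for Trf at 520 CPM (next 394).

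The sham slice of Mouse1563, also T41B on BD10-2, was lowest for Fa2h at 20.8 CPM (next 34) and for Mog at 26.1 CPM (next 38.9). In the same group Klk6 was lowest in Mouse1570, at 3.3 CPM (next 4.61). Gpr17 was highest in the stimulated slice of Mouse1592, at 9.19 CPM (next 4.71).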

How the results depend on the processing

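The number of members called with stimulation was 5 in vehicle-treated wild-type mice, 8 under the replicate block (the mouse) and 2 to 3 when a mouse was left out. In T41B mice on vehicle it was 7, 4 with only the groups compared in the fit, and 3 to 9 without a mouse (3 without Mouse1553, 9 without Mouse1510). With BD10-2 it was 2 in wild-type mice, 1 with batch as a covariate and 1 without any mouse, and 6 in T41B mice, 3 to 5 without a mouse. Between genotypes it was 3 in vehicle sham slices (0 with batch, 1 with only the groups compared, 1 to 8 without a mouse) and 1 in vehicle stimulated slices (0 with batch, 0 to 2 without a mouse). In BD10-2 sham slices it was 2 (5 with DESeq2, 7 with only the groups compared, 1 to 4 without a mouse), and in BD10-2 stimulated slices 4 (1 to 4 without a mouse). The block with the mouse ended no stimulation call. The cause of these changes was not tested, except that leaving out a mouse or other groups leaves fewer samples. Over 342 alternatives of 30 called results, 274 kept the call, 68 lost it and 0 changed direction; 10 results were called in every alternative run. Library totals moved the median of all genes by up to -0.08. For treatment and the interactions, 0 members were called in every alternative run; over all genes, DESeq2 called 25 for treatment in wild-type stimulated slices, 20 for genotype by stimulation with BD10-2, 1 for it with vehicle and 1 for treatment by stimulation, and edgeR without the filter called 2 for genotype by stimulation with BD10-2. The difference between precursor and myelin medians changed sign in vehicle-treated T41B mice with stimulation (-0.03; 0.11 without Mouse1510 and 0.05 without Gpr17), between genotypes in BD10-2 sham slices (-0.15; 0.02 without Mouse1590) and, without Gpr17, between genotypes in stimulated slices (-0.04 and -0.03); leaving out Gpr17 was chosen after seeing the data. Genes near 1 CPM, such as Klk6 and Ninj2, are limited by depth.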

Other observations

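Genes that oligodendrocytes and other glia raise in inflamed or diseased tissue formed a separate list of 10 that are not members. With stimulation 7, 6, 6 and 8 of them were called higher (edgeR adjusted p under 0.05; vehicle wild-type, vehicle T41B, BD10-2 wild-type, BD10-2 T41B), with median log2 changes of 1.02, 0.69, 1.04 and 1.08. In T41B against wild-type slices 9 of 10 were called higher in each of the 4 comparisons, with medians of 1.27, 1.29, 1.37 and 1.65. C4b, a complement component, was 126 CPM in wild-type and 418 CPM in T41B vehicle sham slices, 170 and 454 CPM in vehicle stimulated slices, 116 and 452 CPM in BD10-2 sham slices and 167 and 563 CPM in BD10-2 stimulated slices. Microglia and astrocytes also make several of these genes, and 6 to 10 of 10 microglial and 2 to 6 of 10 astrocyte markers were called higher in the same genotype comparisons. The part of those cells was not tested.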
